A study of Mus musculus with 40 samples.

Results

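A set of 10 genes of the p53 response and of growth arrest were followed through ischaemia-reperfusion injury of the mouse kidney and through treatment of that injury with mesenchymal stromal cells. The 10 were taken by gene name from a fixed list, namely Cdkn1a, Ccng1, Btg2, Gadd45a, Gadd45b, Mdm2, Trp53inp1, Sesn2, Gdf15 and Cdkn2a, out of 55862 names in the table of the time course and 55866 in each of the other tables. A name was to be skipped if its control counts disagreed between the time course and therapy tables, and 0 of the 10 were. Cdkn2a was counted too rarely to be tested within any table, so 9 of the 10 could be tested there.

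RNA from kidneys of C57bl/6 wild-type mice was sequenced in 40 samples, which fall into 10 groups of 4. In the time course, 4 kidneys without injury (Control) stand beside kidneys taken 6, 24, 48 and 72 h after ischaemia and reperfusion. In the therapy table the same 4 Control samples stand beside injured kidneys labelled 6 h after reperfusion (AKI) and injured kidneys of mice that received human stromal cells right after reperfusion, under the same anaesthesia, from bone marrow (BM-MSC) or from umbilical cord (UC-MSC). The labels give no time for the BM-MSC and UC-MSC samples. In the sham table, 4 kidneys taken 24 h after surgery without ischaemia (sham) stand beside 4 kidneys of mice without surgery (sham control). All groups share strain and genotype, and the treated groups share the injury. Nothing in the labels says whether the 4 samples of a group are separate animals, so the tests rest on sample-to-sample spread that could be technical.

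The transcription factor p53 is held low by the ubiquitin ligase Mdm2 and is released by DNA damage and other stresses. It then switches on Cdkn1a, which encodes the cyclin-dependent kinase inhibitor p21, together with genes of repair, cell death and its own restraint, Mdm2 and Ccng1 among them. Several of its targets also answer to other signals: Gdf15, Sesn2 and Gadd45a to the ATF4 and CHOP branch of the stress response, and Btg2 and Gadd45b to immediate early and inflammatory signals. In the injured kidney, p21 in tubule cells is a known marker of cell cycle arrest.

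Promoter stretches are shown for the 3 members with a searched motif in a window, 250 bases before to 50 after an annotated start. They are shown because these members part ways in the results: Cdkn1a and Btg2 rose after injury and Ccng1 fell. Sequences are from RefSeq, build GRCm38.p6, whereas the counts were made on GRCm39. They run 5′ to 3′ on the strand of the gene, and capitals mark the motif. Cdkn1a lies on the plus strand at chr17:29090888-29090978 and Ccng1 on the minus strand at chr11:40755422-40755521. Each carries a p53 response element with 1 mismatch, centred 41 bases before an annotated start of Cdkn1a and 185 before that of Ccng1. Cdkn1a has 2 windows, and the window at its other start held no searched motif. Btg2, on the minus strand at chr1:134079274-134079361, carries TGACGTCA, the site of the CREB and ATF family, centred 162 bases before the start.
Cdkn1a: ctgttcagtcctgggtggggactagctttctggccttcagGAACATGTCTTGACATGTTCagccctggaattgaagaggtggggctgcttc
Ccng1: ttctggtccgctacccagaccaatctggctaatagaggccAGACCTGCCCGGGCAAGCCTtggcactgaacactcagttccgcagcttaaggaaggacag
Btg2: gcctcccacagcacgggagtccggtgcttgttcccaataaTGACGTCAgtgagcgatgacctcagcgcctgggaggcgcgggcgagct

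The p53 response element was searched on both strands as 20 bases, 2 adjacent half-sites. The fixed C and G of each half-site were required, with up to 2 mismatches at the other positions, and 107 of 32851 windows (0.326%) held it. TGACGTCA stood in 1.79% of windows. The C/EBP-ATF composite TGATGNAA stood in 3.97% of windows and in none of the members'. Windows were found for 9 of the 10 members, Trp53inp1 being the one not matched. A match is a run of letters, and no binding was measured here.

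Total counts ran from 4656775 to 37097091 per library and were lowest at 72 h (4656775 to 5383784). The share of mitochondrial ribosomal RNA was 0.180% to 0.219% in Control, 0.238% to 0.499% at 6 h, 1.57% to 1.997% at 24 h, 2.54% to 4.33% at 48 h, 2.94% to 3.0% at 72 h and 0.944% to 2.39% in AKI. The deposited tables were put together from blocks of libraries. In names that stand on several lines, the lines are laid out alike in every pair of libraries of a block (100%) and in no pair across blocks (0%): Control and 6 h form one block of the time course, and 24, 48 and 72 h form the other. In the therapy table AKI stands alone, and Control, BM-MSC and UC-MSC form the other block. Differences that cross blocks cannot be told apart from differences in how the blocks were made. The 8 proximal tubule markers summed to 14562 to 17893 CPM (counts scaled to library size) in Control and were measured in every group, and the sum was 3066 to 7847 at 6 h and 666 to 791 at 72 h. Fewer cells of a type and less RNA per cell cannot be told apart in bulk tissue.

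Cdkn1a, whose product p21 stops the cell cycle, was higher at each of the 4 times after injury. Its level, in CPM after scaling by trimmed mean of M-values, was 21.7, 11.2, 21.5 and 20 in the Control libraries 1 to 4 and 380.1, 95.3, 83.1 and 73.0 at 6 h. At 24 h the libraries stood at 120.5, 109.7, 179 and 154, at 48 h at 95, 90.3, 51.9 and 145, and at 72 h at 108, 90.2, 82.6 and 56.4. Every injured library lay above every Control library, and library 1 at 6 h lay far above the other 3. Such separation was common among all names tested. At 6 h 20.2% of them lay wholly above Control and 27.0% wholly below. These shares were 32.6% and 32.9% at 24 h, 22.7% and 29.9% at 48 h, and 20.7% and 31.2% at 72 h. The rise was 8.47-fold at 6 h (log2 difference 3.08 ± 0.43 SE, edgeR adjusted p = 1.9e-05) and 4.53-fold at 72 h (2.18 ± 0.42, adjusted p = 1.5e-04). Without library 1 the difference at 6 h was 2.17 (adjusted p = 7.1e-06). From 6 to 24 h Cdkn1a differed by -0.16 (adjusted p = 0.81), and without that library it was 0.74 higher at 24 h (adjusted p = 0.049). In that library the 5 measured neutrophil markers summed to 474 CPM against 52.1 to 60.3 in the other 3, and the 5 measured tubular injury markers to 2547 against 931 to 1092. Their part in the result was not tested.

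**Figure D1:**
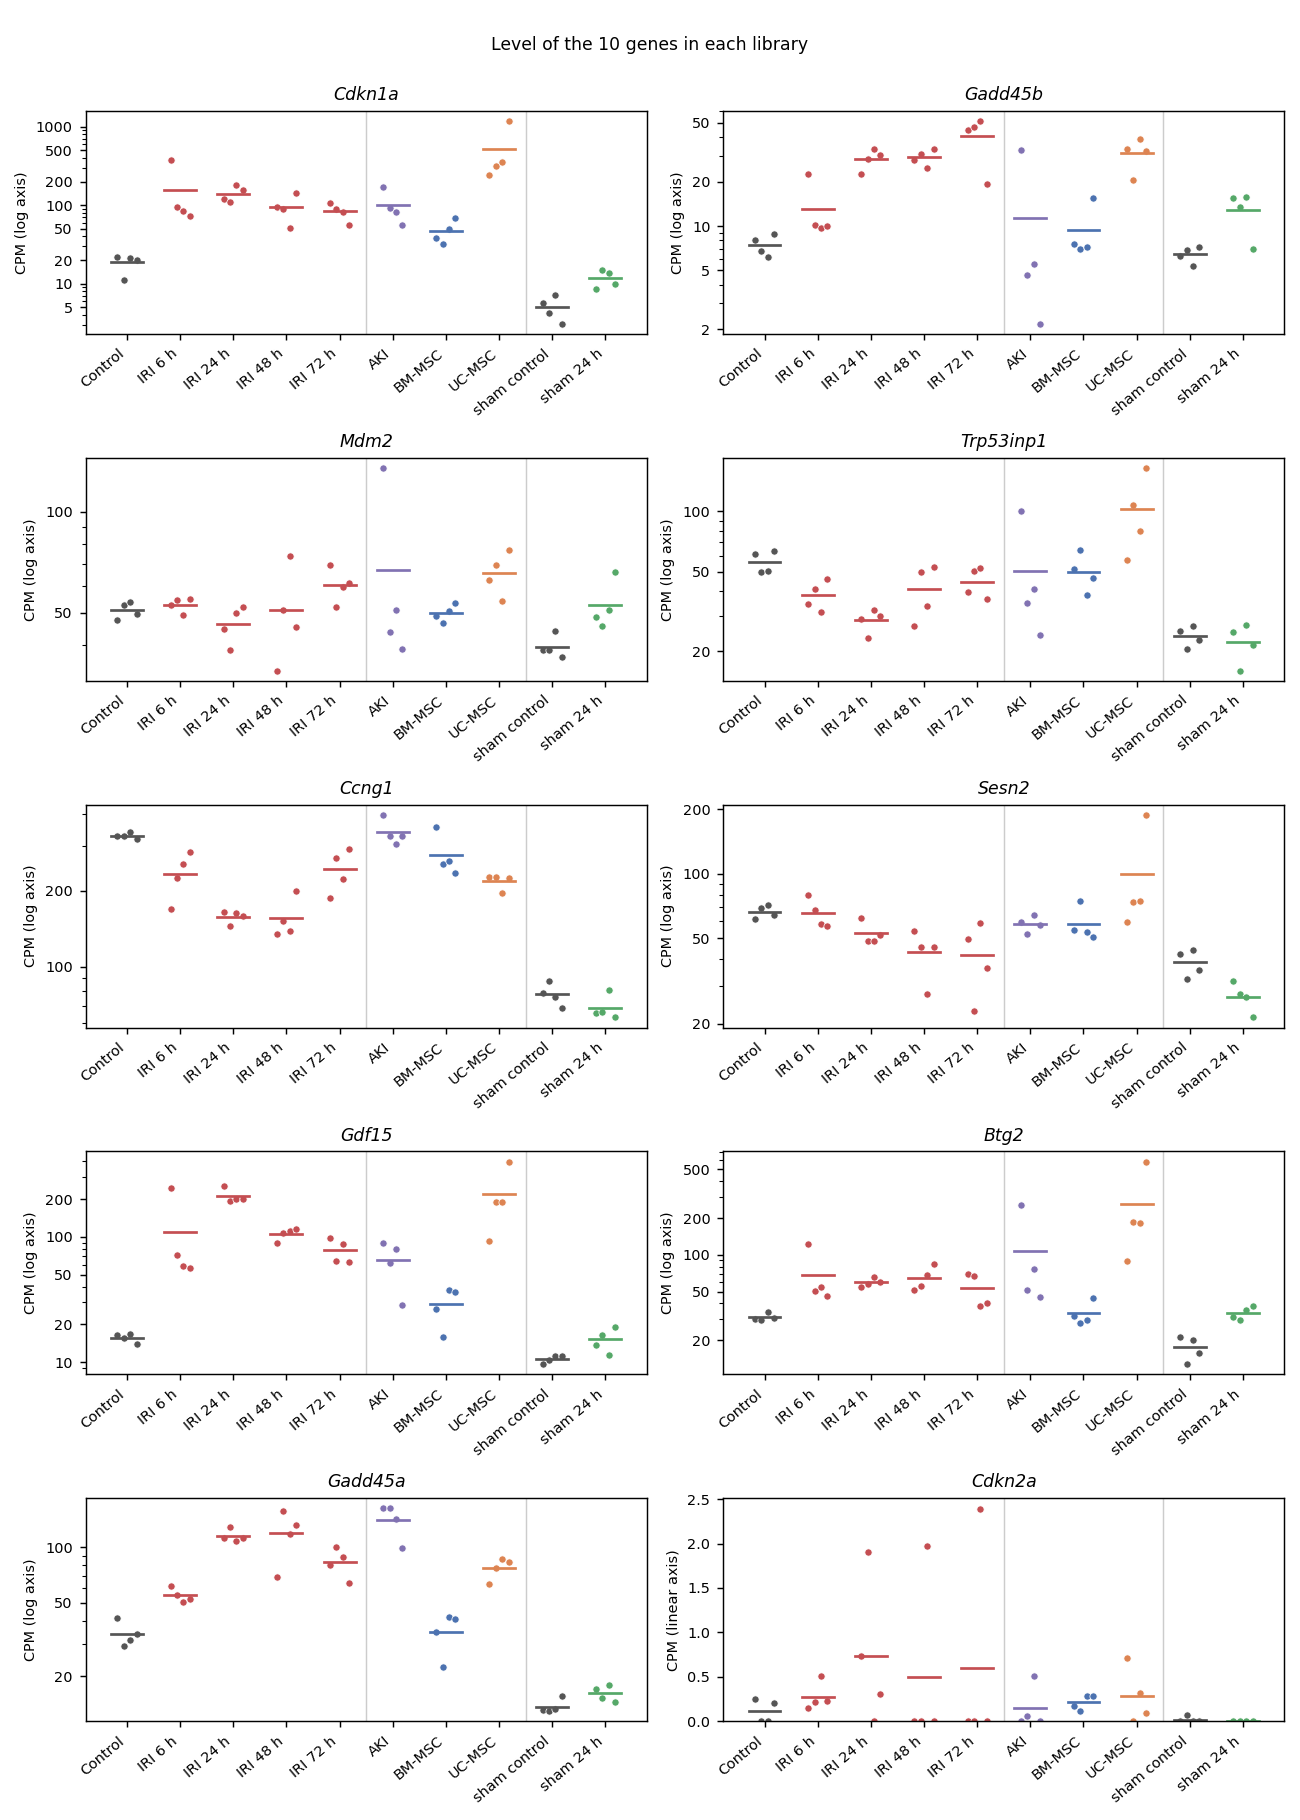
Level of each of the 10 genes in every library, in CPM on a log axis (linear for Cdkn2a), by group. Each point is a library and each bar the mean of 4. Cdkn1a lies between 3.08 and 14.9 CPM in the sham table and between 11.2 and 21.7 in Control, and reaches 1182 CPM in 1 UC-MSC library.

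Btg2, an antiproliferative gene that is both a p53 target and an immediate early gene, was also higher at each time. Control libraries stood at 30.0, 29.3, 33.8 and 30.4 CPM and the 6 h libraries at 123, 50.6, 54.2 and 46.4. The later libraries stood at 54.0, 57.9, 65.9 and 60.0 at 24 h, 51.8, 56.0, 68.3 and 84.1 at 48 h, and 69.8, 67.3, 38.0 and 40.5 at 72 h. No injured library overlapped Control, and library 1 at 6 h was again the highest. Btg2 was called higher at all 4 times, with log2 differences of 1.15 ± 0.26 at 6 h (edgeR adjusted p = 0.0026), 0.95 at 24 h, 1.08 at 48 h and 0.81 ± 0.26 at 72 h (adjusted p = 0.012). The call at 72 h was lost without library 1 of that time (0.61, adjusted p = 0.062) or without library 2 (0.64, adjusted p = 0.053).

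Gdf15, a secreted stress cytokine, was higher at all 4 times, with its highest mean at 24 h. It stood at 16.5, 15.5, 16.7 and 14 CPM in Control, at 247, 72.1, 58.9 and 56.4 at 6 h, and at 253, 193, 199 and 201 at 24 h. It stood at 89.6, 107, 110.5 and 116 at 48 h and at 98.4, 64.5, 87.6 and 63.2 at 72 h. All injured libraries lay above Control, and the 24 h libraries lay above all but library 1 of 6 h. The rise over Control was 13.5-fold at 24 h (log2 3.75 ± 0.36, edgeR adjusted p = 1.5e-08), against 6.92-fold at 6 h and 4.99-fold at 72 h. Without library 1 the log2 difference at 6 h was 2.0 instead of 2.79. The step from 6 to 24 h (0.96 ± 0.32, adjusted p = 0.026) crosses blocks. It was 1.75 without library 1 of 6 h and missed the threshold without library 2, 3 or 4 of 6 h or library 1 of 24 h (adjusted p from 0.098 to 0.11). The fall from 24 to 48 h (-1.0 ± 0.32, adjusted p = 0.029) missed it without library 1 of 24 h (adjusted p = 0.078), or library 1 (adjusted p = 0.065) or 2 (adjusted p = 0.05) of 48 h.

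The 2 Gadd45 genes, whose small proteins link stress to arrest, repair and p38 signalling, were both called higher from 24 h on. Gadd45a stood at 41.6, 29.1, 31.3 and 34.0 CPM in Control, at 62.1, 55.3, 50.3 and 52.6 at 6 h and at 113, 129.9, 108 and 112 at 24 h. At 48 h it stood at 69.5, 157, 119 and 133, and at 72 h at 79.9, 101, 88.4 and 63.9. Its injured and Control libraries did not overlap at any time, and 24 h did not overlap 6 h. The log2 difference from Control was 0.70 ± 0.19 at 6 h (edgeR adjusted p = 0.012), 1.77 at 24 h, 1.81 ± 0.20 at 48 h (adjusted p = 6.4e-08) and 1.29 at 72 h. At 6 h the call was lost without Control library 2 (0.63, adjusted p = 0.052).

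Gadd45b stood at 8.04, 6.79, 6.19 and 8.89 CPM in Control and at 22.5, 10.2, 9.66 and 9.95 at 6 h. It stood at 22.4, 28.6, 33.2 and 30.1 at 24 h, at 28.0, 30.8, 24.6 and 33.3 at 48 h, and at 44.6, 47.1, 51.4 and 19.2 at 72 h. The libraries did not overlap Control at any time. The difference at 6 h nevertheless did not pass the test (log2 0.80 ± 0.30, edgeR adjusted p = 0.061), and without library 1 of that group it was 0.41. At 72 h Gadd45b was 5.42-fold higher (2.44 ± 0.31, adjusted p = 5.1e-07). From 6 to 24 h, across blocks, it rose by 1.13 (adjusted p = 0.0052) and Gadd45a by 1.07 (adjusted p = 1.8e-04).

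Mdm2, the ligase that restrains p53, did not pass the test at any time after injury. Its level was 47.4 to 53.9 CPM in Control, 49.1 to 54.8 at 6 h, 38.8 to 51.8 at 24 h, 33.6 to 73.9 at 48 h and 52.0 to 69.4 at 72 h. These ranges overlap Control at each time. The log2 difference was 0.05 ± 0.18 at 6 h, and the fold was at most 1.19 in size at the 4 times (edgeR adjusted p from 0.25 to 1).

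Ccng1, which encodes cyclin G1, a p53 target that brings a phosphatase to Mdm2, moved opposite to Cdkn1a. Control stood at 329.8, 329.7, 340.5 and 321 CPM, 6 h at 169, 225, 254 and 283, and 24 h at 165, 145, 163 and 159. At 48 h it stood at 135, 152, 139 and 199.7, and at 72 h at 187, 269.7, 222 and 293. All injured libraries lay below all Control libraries. The log2 difference was -0.50 ± 0.16 at 6 h (edgeR adjusted p = 0.03), -1.06 ± 0.16 at 24 h (adjusted p = 1.2e-05), -1.08 at 48 h and -0.44 ± 0.16 at 72 h (adjusted p = 0.023). The call at 6 h is fragile: it was lost when any of 6 of the 8 libraries was left out (each of the 4 Control libraries, and libraries 1 and 2 of 6 h, with adjusted p from 0.054 to 0.12) and when libraries were scaled by size alone (-0.35, adjusted p = 0.13). At 72 h it was lost without library 1 of that time (-0.38, adjusted p = 0.058) and under DESeq2's size factors (-0.31, adjusted p = 0.1). The rise from 48 to 72 h (0.64, adjusted p = 0.027) missed the threshold without library 1 or 3 of 48 h or library 2 or 4 of 72 h (adjusted p from 0.055 to 0.062).

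Trp53inp1, a p53-induced gene of autophagy and cell death, was lower at 24 h. It stood at 61.1, 49.6, 50.1 and 63.5 CPM in Control, at 34.4, 41.1, 31.4 and 45.9 at 6 h and at 28.9, 23.3, 32.2 and 30.0 at 24 h. Neither time overlapped Control, and the 48 h (26.6 to 52.8) and 72 h (36.3 to 52.2) libraries did. At 24 h the log2 difference was -0.97 ± 0.21 (edgeR adjusted p = 5.6e-04), and at 6 h it was -0.55 ± 0.20 (adjusted p = 0.063).

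Sesn2, whose product restrains mTORC1 under stress, was lower at the late times. Control stood at 61.5, 69.2, 71.4 and 64.5 CPM, 48 h at 54.1, 45.6, 27.5 and 45.4 and 72 h at 49.6, 23.0, 59.1 and 36.3, with no overlap. At 6 h it ranged from 57.0 to 79.9 and at 24 h from 48.4 to 62.0, both overlapping Control. The log2 difference was -0.63 ± 0.23 at 48 h (edgeR adjusted p = 0.023) and -0.66 ± 0.23 at 72 h (adjusted p = 0.016). The call at 48 h was lost without library 3 of that time (-0.48, adjusted p = 0.074), and under DESeq2's size factors both calls were lost (adjusted p = 0.055 and 0.051).

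Cdkn2a, which encodes p16 and p19ARF and marks senescent cells, was at the edge of detection throughout. The Control libraries held 4, 0, 0 and 3 counts, 6 h held 2, 4, 7 and 4, 24 h held 5, 15, 0 and 3, and library 3 alone held counts at 48 h (15) and 72 h (12). A count of 0 allows up to 3 counts, which at 72 h is 0.557 to 0.644 CPM and in Control 0.183 to 0.2 CPM, covering counting error alone. A difference between groups was not detectable at this depth.

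Counted together, 4 of the 9 tested members rose and 1 fell at 6 h, where 18.8% of all 16659 names tested were called in either direction and 10.3% were called higher. At 24 h 5 rose and 2 fell, beside 42.0% of all names called, and the counts were also 5 and 2 at 48 h (53.7%) and at 72 h (56.3%). The median log2 difference of the 9 was 0.70, 0.95, 1.08 and 0.81 at the 4 times, and that of all names was -0.07, 0.05, 0.01 and -0.05. The 4 comparisons share the Control libraries. From 6 to 24 h, 3 rose and 1 fell (28.8% of all names called), from 24 to 48 h 1 fell (21.1%), and from 48 to 72 h 1 rose (5.65%). At 24, 48 and 72 h the members' calls thus stand beside a high background, and the 5 of 9 called higher stand beside 21.8%, 26.9% and 26.7% of all names.

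**Figure D2:**
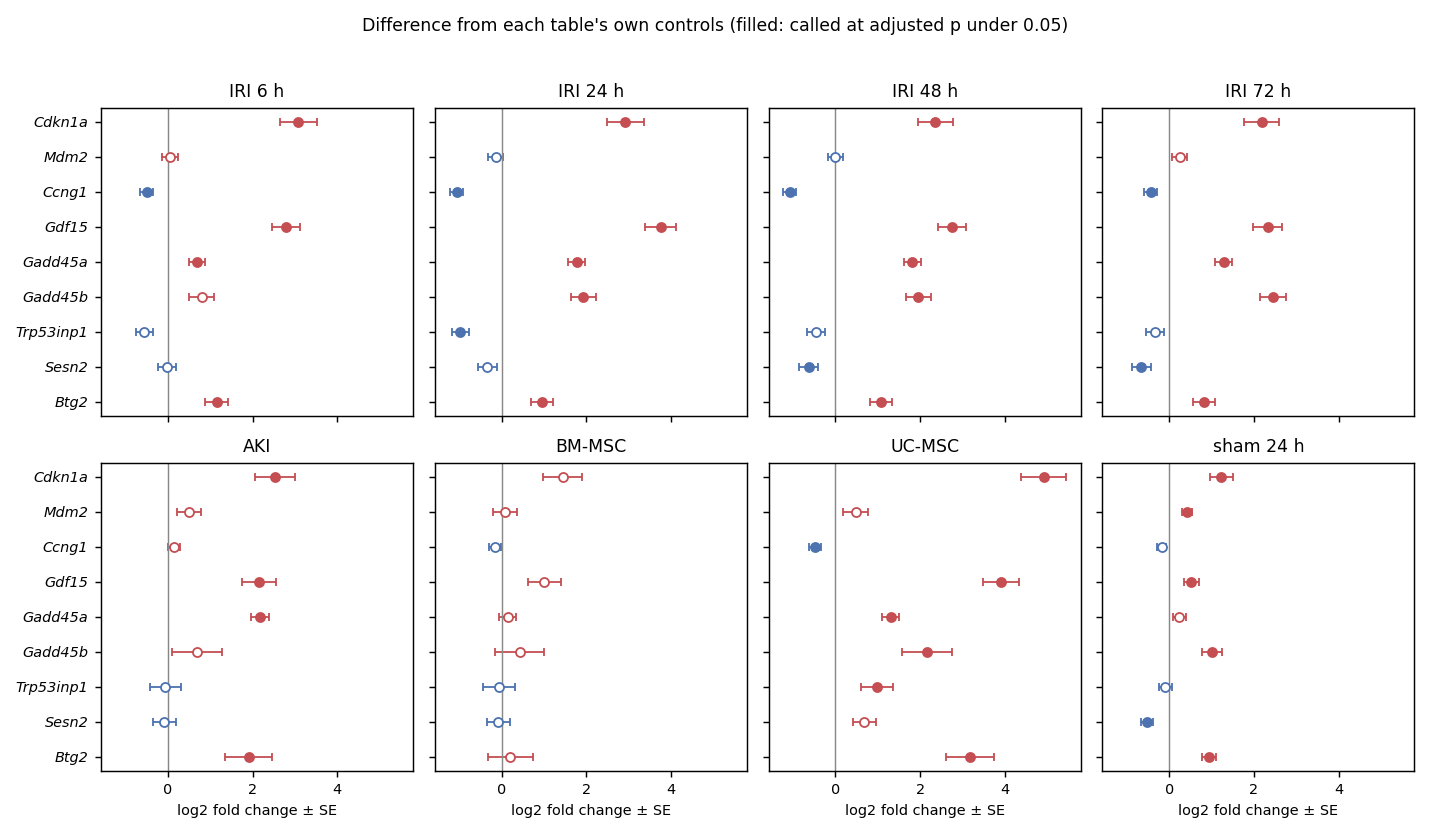
Log2 difference (± SE) of the 9 tested genes from the controls of their own table in 8 comparisons. Filled points passed the threshold of 0.05 on the adjusted p. Cdkn1a and Gdf15 lie above 0 in all 8, and Ccng1 lies below 0 at the 4 times of the time course but not in AKI.

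Trp53 itself, whose protein is mostly controlled after translation, was 29.3 ± 1.76 CPM (SD, n = 4) in Control and 63.8 ± 5.74 at 6 h, a log2 difference of 1.12 ± 0.20 (edgeR adjusted p = 2.2e-04). It was 81.2 ± 17.4 at 24 h (1.47, adjusted p = 2.4e-06), 41.1 ± 9.47 at 48 h (0.49, adjusted p = 0.041) and 26.5 ± 6.26 at 72 h (-0.14, adjusted p = 0.56). Cdkn1a was thus still called higher at 72 h, when Trp53 was not called. Among the 15 listed genes of p53 and its regulators, 3 rose and 1 fell at 6 h, Trp53 being 1 of those that rose. Of all names, 10.3% were called higher and 8.52% lower at 6 h. Chek1, a checkpoint kinase, rose by 2.64 ± 0.51 (adjusted p = 5.6e-04), and Bcl6, a repressor of Trp53, fell by 2.59 on the log2 scale (adjusted p = 3.1e-07).

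Other p53 targets were read from lists, beside a background of 10.3% of all names called higher and 8.52% lower at 6 h, and 21.8% and 20.2% at 24 h. Of the 10 tested targets of cell cycle and signalling, 8 rose and 0 fell at 6 h, and 9 rose and 0 fell at 24 h. Sfn, encoding 14-3-3 sigma, a brake on entry into mitosis, went from 12.7 ± 1.52 CPM in Control to 109 ± 56.4 at 6 h (log2 3.10 ± 0.26, edgeR adjusted p = 1.8e-08) and 166 ± 34.3 at 24 h (3.71). Rprm, also a brake on mitosis, went from 0.540 ± 0.185 to 13.8 ± 3.60 CPM at 24 h (4.64, adjusted p = 2.7e-07). Of the 15 cell death targets, 6 rose and 0 fell at 6 h, and 5 rose and 2 fell at 24 h. Bax, which opens the mitochondrial outer membrane, went from 40.1 ± 0.105 to 147 ± 18.2 CPM at 24 h (1.87 ± 0.17, adjusted p = 8.3e-09), while Bid fell by 1.44 (adjusted p = 6.7e-06). Of the 12 targets of repair and metabolism, 2 rose and 2 fell at 6 h, and 3 rose and 4 fell at 24 h, near that background. Rrm2b, the p53-induced ribonucleotide reductase subunit, fell by 1.17 at 6 h (adjusted p = 0.0065) and by 1.53 at 24 h, and Xpc, a sensor of DNA damage, fell by 1.51 at 24 h (adjusted p = 7.9e-06).

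Genes of division were counted beside the members. The background was again 10.3% of all names called higher and 8.52% lower at 6 h, and 21.8% and 20.2% at 24 h. Of 15 cyclins, cyclin-dependent kinases and E2F factors, 11 rose and 0 fell at 6 h, Ccna2 from 4.23 ± 1.92 to 67.6 ± 30.5 CPM (log2 3.99 ± 0.41, edgeR adjusted p = 2.8e-07) and Cdk1 from 5.23 ± 1.88 to 80.6 ± 28.2. At 24 h 5 rose and 2 fell, with Ccna2 at 8.68 ± 3.83. In AKI, Ccnb1 stood at 2.55 ± 2.60 CPM beside 3.30 ± 0.938 in Control and was not called. Ccna2 stood at 9.01 ± 4.83 CPM in AKI, so Ccnb1 does not stand for the whole list there. Among 8 other inhibitors and pocket proteins, 3 rose and 2 fell at 6 h, Cdkn2c rising by 1.66 (adjusted p = 0.0011) and Rbl2 falling by 1.02 (adjusted p = 0.0091), and 0 rose and 2 fell at 24 h. Of the 9 relatives of the members, 2 rose and 1 fell at 6 h, and 2 rose and 6 fell at 24 h. Gadd45g reached 267 ± 48.7 CPM at 72 h from 44.4 ± 6.89 (2.59 ± 0.18, adjusted p = 7.1e-11), whereas Tob1, an antiproliferative relative of Btg2, fell by 1.59 at 24 h (adjusted p = 1.0e-06) and Sesn1 by 1.00 (adjusted p = 0.019).

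Signals other than p53 that reach the members were counted the same way. Of 10 genes of the ATF4 and CHOP branch, 9 rose and 1 fell at 6 h, and 8 rose and 1 fell at 24 h. Atf3 went from 2.82 ± 0.420 CPM to 18.1 ± 6.86 at 6 h and 33.0 ± 4.80 at 24 h (log2 3.54 ± 0.37, edgeR adjusted p = 6.2e-08). Of 11 tested immediate early genes, 10 rose and 0 fell at both times, Myc by 2.86 ± 0.28 at 6 h (adjusted p = 1.4e-07). Which of these inputs acted on the members was not tested.

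**Figure D3:**
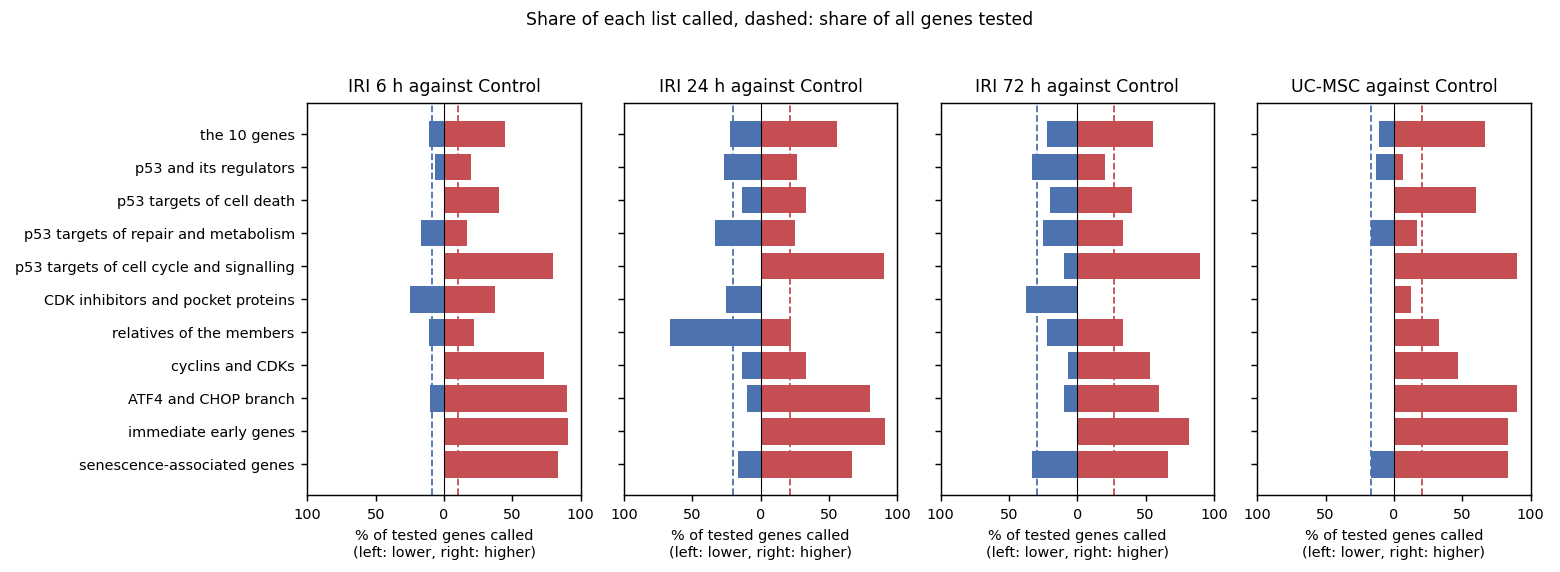
Share of each list called higher (to the right) or lower (to the left) at 6, 24 and 72 h after injury and in UC-MSC kidneys, each against Control. Dashed lines give the share of all names tested, and the 10 genes are shown by the 9 tested. Targets of cell cycle and signalling stand well to the right at 6 h, where 8 of 10 rose.

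In AKI, the injured group of the therapy table, 4 members rose and 0 fell, beside 35.0% of all 16639 names called in either direction. Cdkn1a stood at 172, 90.9, 82.2 and 55.1 CPM, Gdf15 at 89.5, 62.0, 80.6 and 28.5, and Gadd45a at 163, 163, 142 and 99.0. All of these libraries lay above Control, which on the scale of this table was 10.4 to 20.2 for Cdkn1a, 13.1 to 15.4 for Gdf15 and 26.9 to 38.8 for Gadd45a. Of all names tested, 15.8% lay wholly above Control in AKI. The log2 differences were 2.53 ± 0.48 for Cdkn1a (edgeR adjusted p = 8.9e-04), 2.16 ± 0.40 for Gdf15 (adjusted p = 8.5e-04) and 2.17 ± 0.21 for Gadd45a (adjusted p = 6.3e-06). Btg2, at 258, 51.6, 76.0 and 45.3 CPM, was called higher (1.91 ± 0.55, adjusted p = 0.013) but not without library 1 (0.98, adjusted p = 0.065). Library 1 also held the highest Mdm2 (135 CPM beside 38.9 to 50.8), Gadd45b (32.6 beside 2.18 to 5.56) and Trp53inp1 (101 beside 24.2 to 40.7). In that library the markers of thick ascending limb and distal tubule summed to 3199 CPM beside 665 to 1141, those of endothelium to 195 beside 41.7 to 51.8, and mitochondrial ribosomal RNA was 2.39% beside 0.944% to 1.14%. Their part in its levels was not tested. Neither Mdm2 nor Gadd45b nor Trp53inp1 nor Sesn2 nor Ccng1 passed the test, and Trp53 was higher (1.20 ± 0.28, adjusted p = 0.0037). These comparisons cross blocks.

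AKI and the 6 h group of the time course carry the same label of time but not the same levels. In a joint fit of both, chosen after seeing the data, 34.5% of 16835 names were called, and of the 9 members Gadd45a (log2 1.36 ± 0.19 higher in AKI, edgeR adjusted p = 3.1e-05) and Ccng1 (0.54 ± 0.16, adjusted p = 0.014) were. The 6 h group shares a block with Control and AKI does not, so this comparison crosses blocks too. The 4 adipocyte markers summed to 964 to 1832 CPM in AKI, 319.8 to 560.2 at 6 h and 1051 to 2049.6 at 24 h. In the same order, proximal tubule sums were 6206 to 8362, 3066 to 7847 and 1484 to 2999. Fibroblast sums were 258 to 386, 2028 to 2419 and 264 to 603, and endothelium sums 41.7 to 195, 177 to 347 and 138 to 219.5. These lists did not all place AKI nearest the same time. Comparisons of treated kidneys with AKI are therefore given beside the same comparisons with the 6 h group, which lies in another table.

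In BM-MSC kidneys no member passed the test against Control. Cdkn1a stood at 38.3, 31.7, 49.4 and 67.7 CPM, Gdf15 at 26.7, 15.8, 38.0 and 36.3, and Gadd45a at 34.5, 22.5, 41.8 and 40.6. Cdkn1a and Gdf15 lay above all Control libraries and Gadd45a overlapped them. Of all names tested, 18.5% lay wholly above Control in BM-MSC kidneys. In all, 0 of 9 members were called against Control by edgeR, beside 8.92% of all names. At an unadjusted p under 0.05 there were 2, and DESeq2 called 1. Cdkn1a differed by log2 1.44 ± 0.46 (edgeR adjusted p = 0.062, and 0.019 by DESeq2) and Gdf15 by 1.01 ± 0.39 (adjusted p = 0.12). Fitted with Control and BM-MSC libraries only, both passed (adjusted p = 0.0021 and 0.0082). The other BM-MSC libraries ranged from 46.6 to 53.4 CPM for Mdm2, 234 to 356 for Ccng1, 7.03 to 15.6 for Gadd45b, 38.2 to 64.0 for Trp53inp1, 50.7 to 75.0 for Sesn2 and 27.4 to 44.5 for Btg2, and Cdkn2a held 3, 2, 5 and 6 counts.

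Against AKI, 3 of the 9 members were lower in BM-MSC kidneys and 0 higher, beside 33.3% of all names called. This comparison crosses blocks, so a difference between the groups cannot be told apart from one between blocks. Of all names tested, 12.2% lay wholly below AKI. Gadd45a fell by 2.02 on the log2 scale (SE 0.21, edgeR adjusted p = 1.1e-05), with no overlap. Btg2 fell by 1.70 (SE 0.54, adjusted p = 0.025) and by 0.79 without AKI library 1 (adjusted p = 0.13), and it was also lost without library 1, 2 or 3 of BM-MSC (adjusted p from 0.058 to 0.065). Gdf15 fell by 1.16 (SE 0.39, adjusted p = 0.032) and missed the threshold without library 1, 2 or 3 of AKI or library 1 or 2 of BM-MSC (adjusted p from 0.053 to 0.096). Cdkn1a differed by -1.09 ± 0.45 (adjusted p = 0.073, and 0.039 by DESeq2). Gadd45b, which differed by -0.26, was 1.18 higher in BM-MSC kidneys without AKI library 1 (adjusted p = 0.0092). With the 6 h libraries in the place of AKI, edgeR called 0 members and 0 of all 16835 names, with 3 members and 2701 names at an unadjusted p under 0.05. The differences were then -1.75 ± 0.54 for Cdkn1a (adjusted p = 0.2), -1.89 ± 0.48 for Gdf15 (adjusted p = 0.18), -1.04 for Btg2 (adjusted p = 0.33) and -0.66 for Gadd45a (adjusted p = 0.19).

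UC-MSC kidneys held the highest mean Cdkn1a of any group, 523 ± 442 CPM (SD, n = 4). Its libraries stood at 244, 313, 355 and 1182 CPM, all above every AKI, BM-MSC and Control library, and library 4 stood apart. Of all names tested, 23.4% lay wholly above Control in UC-MSC kidneys and 12.4% wholly above BM-MSC. The difference from Control was 30.3-fold (log2 4.92 ± 0.53, edgeR adjusted p = 1.5e-05), and 4.14 without library 4 (adjusted p = 6.0e-06). The difference from BM-MSC was 11.2-fold (3.48 ± 0.49, adjusted p = 5.9e-04), and 2.70 without library 4. These 2 comparisons lie within a block.

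Gdf15 and Btg2 followed in the same kidneys. Gdf15 stood at 93.0, 191, 191 and 398 CPM and Btg2 at 88.5, 185, 183 and 580.2. Both lay above all Control and BM-MSC libraries, and both were highest in library 4. Gdf15 was 15-fold above Control (log2 3.91 ± 0.43, edgeR adjusted p = 1.8e-05) and 7.46-fold above BM-MSC (2.90 ± 0.41, adjusted p = 5.9e-04). Btg2 was 9.05-fold above Control (3.18 ± 0.57, adjusted p = 6.1e-04; 2.41 without library 4) and 7.80-fold above BM-MSC (2.96 ± 0.57, adjusted p = 0.0029; 2.19 without library 4).

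The Gadd45 genes were also higher. Gadd45a stood at 63.1, 77.1, 86.3 and 83.4 CPM and Gadd45b at 33.1, 20.5, 38.7 and 32.3, neither overlapping Control or BM-MSC. Gadd45a was higher by 1.30 ± 0.21 than Control (edgeR adjusted p = 2.3e-04) and by 1.15 ± 0.20 than BM-MSC (adjusted p = 0.002). Gadd45b was higher by 2.16 ± 0.60 than Control (adjusted p = 0.01) and by 1.73 ± 0.59 than BM-MSC (adjusted p = 0.047). The last call was lost without library 1, 2 or 3 of BM-MSC or any one of the 4 UC-MSC libraries (adjusted p from 0.059 to 0.12).

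Of the remaining members, Ccng1 was again the one that was lower. It stood at 226, 226, 195 and 225 CPM in UC-MSC kidneys, below all Control libraries (log2 -0.49 ± 0.14, edgeR adjusted p = 0.015, and 0.05 without library 3). Trp53inp1 stood at 57.2, 108, 80.2 and 165 CPM, overlapping Control, and its call against Control (0.98 ± 0.37, adjusted p = 0.049) was lost when any library but number 1 of UC-MSC was left out (adjusted p from 0.055 to 0.18). Sesn2 stood at 59.4, 74.3, 75.1 and 189 CPM and did not pass (0.68 ± 0.27, adjusted p = 0.057). Mdm2 stood at 62.6, 69.2, 54.2 and 77.0 CPM, above all Control libraries, and did not pass either (0.48 ± 0.29, adjusted p = 0.21). Cdkn2a held 13, 0, 5 and 1 counts. In all, 6 of 9 rose and 1 fell against Control (37.1% of all names called, 20.4% higher), and 5 rose and 0 fell against BM-MSC (20.5% called), with member medians of 1.30 and 1.15 beside 0.09 and 0.01 for all names.

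Other measures also differed between the groups, and within UC-MSC they did not all follow Cdkn1a. The 5 measured neutrophil markers summed to 538, 324, 405 and 51.6 CPM in UC-MSC libraries 1 to 4, to 20, 13.2, 26.1 and 346 in BM-MSC and to at most 4.68 in Control. Library 4 of UC-MSC, the highest in Cdkn1a, was thus the lowest of its group in neutrophil markers and, at 10164 CPM beside 2857 to 4608, the highest in proximal tubule markers. Tubular injury markers summed to 1849 to 3321 CPM in UC-MSC, 434 to 1001 in BM-MSC and 756 to 1248 in AKI, and adipocyte markers to 616 to 1795, 155 to 353 and 964 to 1832. Their part in the members' differences was not tested.

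Against AKI, 4 members were higher in UC-MSC kidneys and 2 lower, beside 40.4% of all names called. This comparison also crosses blocks. Of all names tested, 13.3% lay wholly above AKI and 12.4% wholly below. Cdkn1a was 5.23-fold higher (log2 2.39 ± 0.47, edgeR adjusted p = 1.0e-03) and Gdf15 3.35-fold (1.74 ± 0.39, adjusted p = 0.0026), neither overlapping AKI. For Cdkn1a the difference was 1.61 without UC-MSC library 4 (adjusted p = 0.0018). Gadd45a was lower by 0.87 (adjusted p = 0.0031) and Ccng1 by 0.64 (adjusted p = 0.0026), and neither overlapped. Trp53inp1 (1.03 ± 0.37, adjusted p = 0.036) lost its call without library 2, 3 or 4 of AKI or library 2 or 4 of UC-MSC. Sesn2 (0.76 ± 0.27, adjusted p = 0.034) lost it without library 2 or 4 of AKI or library 4 of UC-MSC, the last leaving 0.26. Leaving out AKI library 1 gave a call to 3 members that were not called with it. Btg2 went from 1.27 (edgeR adjusted p = 0.068) to 2.15 (adjusted p = 9.2e-04), Gadd45b from 1.47 (adjusted p = 0.054) to 2.90 (adjusted p = 8.4e-06) and Mdm2 from -0.03 (adjusted p = 0.95) to 0.54 (adjusted p = 0.0017).

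With the 6 h libraries in the place of AKI, 3 members were higher in UC-MSC kidneys and 0 lower, beside 11.6% of 16835 names called. They were Cdkn1a (log2 1.73 ± 0.54, edgeR adjusted p = 0.045), Trp53inp1 (1.42 ± 0.35, adjusted p = 0.018) and Btg2 (1.92 ± 0.54, adjusted p = 0.028). Gdf15 differed by 1.00 ± 0.46 (adjusted p = 0.16). Gadd45a, lower than in AKI, was 0.49 ± 0.19 above the 6 h libraries (adjusted p = 0.091), and Ccng1 differed by -0.10 (adjusted p = 0.72).

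**Figure D4:**
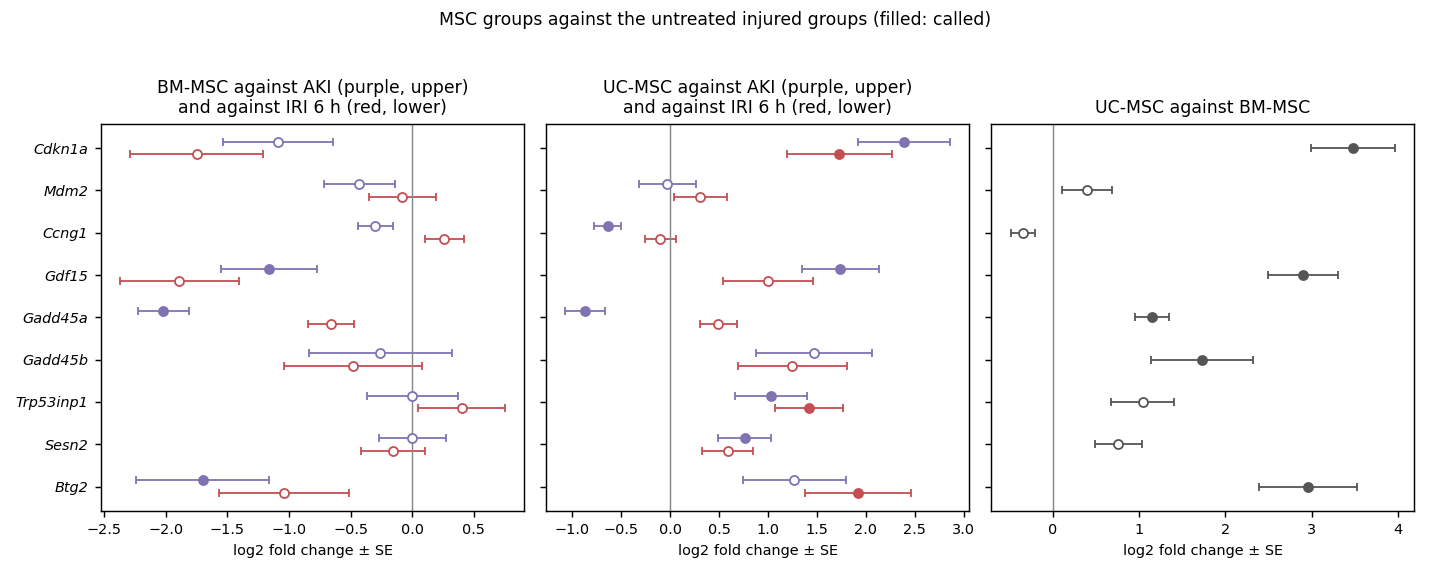
Log2 difference (± SE) of the 9 tested genes in BM-MSC and UC-MSC kidneys against AKI (purple, upper) and against the 6 h group (red, lower), and of UC-MSC against BM-MSC. Filled points passed the threshold. Gadd45a changes side between the 2 references in UC-MSC kidneys.

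Trp53 itself was lower in UC-MSC than in AKI kidneys (log2 -0.82 ± 0.27, edgeR adjusted p = 0.025), a comparison across blocks. It was 35.2 ± 10.1 CPM in UC-MSC, 49.0 ± 10.9 in BM-MSC and 62.4 ± 24.2 in AKI, and neither UC-MSC against Control (log2 0.37 ± 0.27, edgeR adjusted p = 0.3) nor against BM-MSC (-0.48, adjusted p = 0.23) passed. In UC-MSC kidneys against Control, 20.4% of all names were called higher and 16.7% lower, the background for the list counts that follow. Of the 15 cell death targets, 9 rose and 0 fell there. Pmaip1, which encodes Noxa, rose from 12.3 ± 2.27 to 42.2 ± 8.26 CPM (1.77 ± 0.50, edgeR adjusted p = 0.012) and Bbc3, which encodes Puma, by 1.28 (adjusted p = 0.013). Of the 10 tested targets of cell cycle and signalling, 9 rose and 0 fell, Sfn to 132 ± 63.9 CPM (3.48 ± 0.36, adjusted p = 1.3e-05). Btg1 and Btg3, relatives of Btg2, rose by 1.60 (adjusted p = 1.4e-05) and 2.0 (adjusted p = 4.2e-05). Of the 10 genes of the ATF4 and CHOP branch 9 rose, and of the 12 immediate early genes 10 rose, with 0 lower in both.

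Genes of division differed between the 2 treated groups in the other direction. Between them 10.4% of all names were called lower in UC-MSC and 10.0% higher. Of the 15 cyclins, kinases and E2F factors, 6 were lower and 0 higher in UC-MSC than in BM-MSC kidneys, Ccna2 at 12.6 ± 16 beside 67.0 ± 25.2 CPM (log2 -2.40 ± 0.65, edgeR adjusted p = 0.017). Against AKI, a comparison across blocks, 5 of these 15 genes were higher in BM-MSC kidneys and 0 lower. Ccnb1 stood at 52.0 ± 15.7 beside 2.55 ± 2.60 CPM (4.34 ± 0.72, edgeR adjusted p = 4.0e-04). Ccnb1 stood at 55.4 ± 24.8 CPM in the 6 h group of the time course. In the comparison of BM-MSC with AKI, 16.3% of all names were called higher and 17.1% lower. There 7 of 10 genes of the ATF4 and CHOP branch were lower and 0 higher, Ddit3, which encodes CHOP, falling by 2.79 (edgeR adjusted p = 2.0e-06). Of 12 immediate early genes, 9 were lower. In AKI, Jun stood at 248 ± 349 CPM and Klf6 at 283 ± 387, each with an SD above its mean. Junb, at 71.3 ± 50.9, and Ier3, at 73.3 ± 29.4, varied less. The part of single AKI libraries in that count was not tested. Ddit3 was 67.2 ± 8.44 CPM in AKI and 15.3 ± 3.31 in the 6 h group. None of the counts of BM-MSC against AKI held with the 6 h libraries in the place of AKI, where edgeR called 0 of all names, with 2701 at an unadjusted p under 0.05. Sfn was lower in BM-MSC than in AKI by 1.82 (adjusted p = 8.1e-04) and higher in UC-MSC than in BM-MSC by 1.91 (adjusted p = 0.0019).

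Surgery without ischaemia moved several members. In the sham table Cdkn1a stood at 5.64, 4.20, 7.22 and 3.08 CPM in sham control and at 8.57, 14.9, 13.8 and 9.91 at 24 h after sham surgery. Btg2 stood at 21.3, 12.7, 20.1 and 15.6 and at 31.1, 29.5, 35.5 and 38.0. For both, all sham libraries lay above all sham control libraries. Of all names tested in this table, 9.62% lay wholly above sham control and 14.4% wholly below. Cdkn1a was 2.34-fold higher (log2 1.23 ± 0.27, edgeR adjusted p = 0.0032) and Btg2 1.92-fold (0.94 ± 0.16, adjusted p = 4.2e-04).

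Gadd45b stood at 6.25, 6.88, 5.40 and 7.16 CPM in sham control and at 15.4, 13.4, 15.8 and 7.0 after sham surgery, library 4 overlapping (log2 1.01 ± 0.24, edgeR adjusted p = 0.0055). Sesn2 fell from 42.5, 32.5, 44.0 and 35.8 to 31.5, 27.4, 26.7 and 21.4, with no overlap (-0.53 ± 0.14, adjusted p = 0.01). Mdm2, at 36.8 to 44.1 and then 45.6 to 66.1 CPM, was called higher (0.41 ± 0.12, adjusted p = 0.026), as was Gdf15 at 9.64 to 11.2 and then 11.4 to 19.2 (0.52 ± 0.18, adjusted p = 0.049). Both are borderline: Mdm2 was lost without library 1, 2 or 4 of sham control or library 4 of sham (adjusted p from 0.066 to 0.095), and Gdf15 without any library but number 3 of sham (adjusted p from 0.055 to 0.16). Gadd45a (12.9 to 15.5, then 14.4 to 17.8), Ccng1 (68.9 to 88.0, then 63.1 to 81.0) and Trp53inp1 (20.4 to 26.7, then 16 to 26.9) did not pass, and Cdkn2a held 2 counts in 1 sham control library and 0 in all 4 sham libraries, where 0 allows up to 0.113 CPM. In all, 5 of 9 rose and 1 fell. Of all 17781 names tested, 20.8% were called in either direction and 7.70% were called higher. Trp53 did not pass (0.16 ± 0.11, adjusted p = 0.35), and Cdkn2b, encoding the inhibitor p15, rose by 1.63 ± 0.21 (adjusted p = 4.3e-05).

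The change at 24 h after injury was then set against that 24 h after sham surgery, each from the controls of its own table, in one fit of both tables. The levels of the controls differ between the tables (Ccng1 stood at 330.1 ± 8.16 CPM in Control and 77.9 ± 7.95 in sham control), so the difference of the 2 changes was tested and not the levels. The change from Control to 24 h after injury crosses blocks, and taking the difference of the 2 changes does not cancel that. Gdf15 was higher beyond sham by 9.37-fold (log2 3.23 ± 0.42, edgeR adjusted p = 4.9e-07), Gadd45a by 2.87-fold (1.52 ± 0.25, adjusted p = 2.0e-05) and Cdkn1a by 3.22-fold (1.69 ± 0.54, adjusted p = 0.02, and 0.057 without sham control library 3). Ccng1 fell beyond sham by 0.89 (SE 0.21, adjusted p = 0.0019). Trp53inp1 fell by 0.88 (SE 0.28, adjusted p = 0.02), a call lost without library 1 or 4 of Control, library 2 of 24 h, library 2 of sham control or library 3 of sham (adjusted p from 0.053 to 0.061). For Btg2 the difference of the changes was 0.00 ± 0.35 (adjusted p = 1), its change being 0.95 after injury and 0.94 after sham surgery. Gadd45b (0.92 ± 0.40, adjusted p = 0.098), Mdm2 (-0.55 ± 0.23, adjusted p = 0.088), Sesn2 (adjusted p = 0.7) and Cdkn2a (adjusted p = 0.22) did not pass. With 10 members tested in this fit, 3 were higher and 2 lower beyond sham, beside 24.4% of 19596 names called. Trp53 (1.31 ± 0.24, adjusted p = 1.1e-04), Bax (1.94 ± 0.21, adjusted p = 1.8e-08) and Sfn (3.46 ± 0.33, adjusted p = 1.7e-09) were also higher beyond sham.

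**Figure D5:**
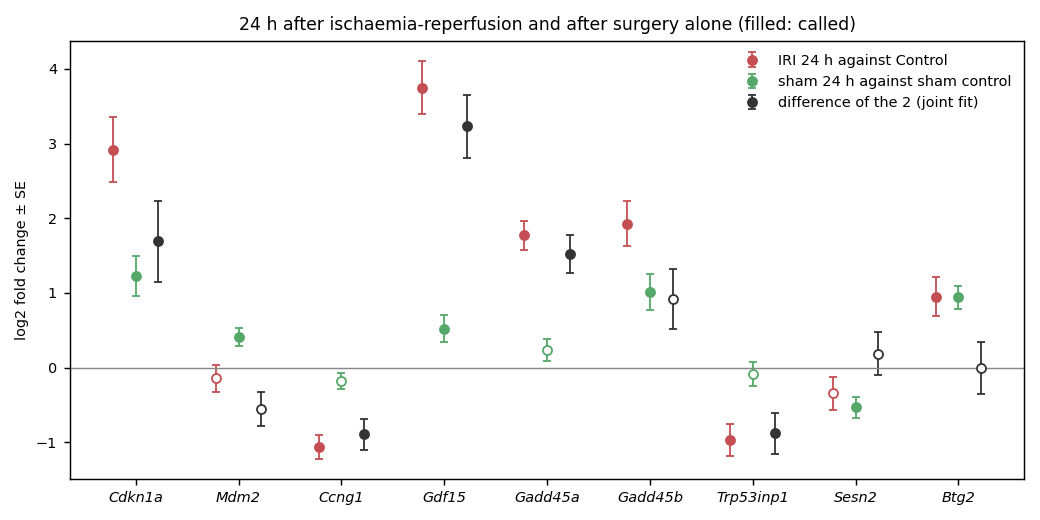
Log2 difference (± SE) at 24 h after injury, at 24 h after sham surgery, and the difference between the 2, for each gene. Filled points passed the threshold. For Btg2 both changes are near 0.95 and their difference is 0.00.

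Across the 20 libraries of the time course, the names whose log2 level ran most like that of Cdkn1a among 10473 whose mean log2 CPM reached 3 were Gprc5a (Pearson r = 0.963), Hspb1 (0.958) and Plaur (0.951). In the 16 libraries of the therapy table, which share the Control libraries, their r was 0.851 to 0.956. Of the members, Gdf15 (0.918 and 0.975) and Btg2 (0.877 and 0.928) were nearest. Gadd45a (0.688 and 0.642) and Gadd45b (0.684 and 0.725) came next, Mdm2 (-0.123 and 0.583), Sesn2 (-0.116 and 0.598) and Trp53inp1 (-0.554 and 0.631) differed between the 2 sets, and Ccng1 ran opposite in both (-0.709 and -0.522). These values describe libraries that share groups and controls.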

How the data were processed

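The authors deposited raw read counts per gene in 3 tables (time course, therapy, sham). HTSeq, DESeq2 and GRCm39 (mm39) are named in the submitters' processing notes. The aligner and strand setting are not given in the sources used here. The 10 genes, the gene lists and the alternatives were chosen with earlier results of these data known. Lines repeated for a name were resolved to 1 count per name, and 81 names whose counts disagreed between or within tables were left out. Counts were scaled by TMM and tested with edgeR 4.0.16 (quasi-likelihood, filterByExpr, 1 fit per table with all groups, two-sided, Benjamini-Hochberg over all names tested, threshold 0.05) in R 4.3.3. Injury beyond sham was the interaction in a joint fit of 2 tables. The fit was tested on simulated data. Alternatives were DESeq2 1.42.0, other scalings, no filter on low counts, fewer groups, a replicate block and leaving out each library. Listed genes were named by rule: up to 4 called (largest change) and 2 uncalled per list. Trp53, Bax, Sfn, Ccna2, Ccnb1 and Btg1 were also given across comparisons after their values were seen. Sequences were read from RefSeq windows. Some names that the rule would give are not reported here.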

Additional observations from a re-analysis of the deposited data

Results flagged for a closer look

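Within groups of 4 libraries, the gap between an extreme library and its nearest neighbour was compared with the whole range of the group. In 18 of 99 sets of 4 the gap was large enough to mark a library as standing apart by Dixon's test. Chance marks about 1 set in 20, and sets of different genes from the same library are not independent.

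Library 1 of the 6 h group stood apart for 4 genes: Cdkn1a (380.1 CPM beside 73.0 to 95.3), Gdf15 (247 beside 56.4 to 72.1), Gadd45b (22.5 beside 9.66 to 10.2) and Btg2 (123 beside 46.4 to 54.2). Library 1 of AKI stood apart for Mdm2 (135 beside 38.9 to 50.8), Gadd45b (32.6 beside 2.18 to 5.56) and Btg2 (258 beside 45.3 to 76.0). Library 4 of UC-MSC stood apart for Cdkn1a (1182 beside 244 to 355) and Sesn2 (189 beside 59.4 to 75.1), and library 3 for Ccng1 (195 beside 225 to 226).

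The other marked libraries were Control library 2 for Cdkn1a (11.2 beside 20 to 21.7), library 1 of 24 h for Gdf15 (253 beside 193 to 201), library 4 of BM-MSC for Gadd45b (15.6 beside 7.03 to 7.57) and library 4 of sham control for Gadd45a (15.5 beside 12.9 to 13.2). Cdkn2a was marked where 1 library held nearly all counts: library 3 of 48 h (1.97 CPM), of 72 h (2.39) and of AKI (0.511), and library 2 of sham control (0.0724).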

How the results depend on the processing

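Of the log2 differences of members under the alternatives, 1946 stayed on their side of the threshold. They include uncalled differences that changed sign, such as Btg2 from 6 to 24 h (-0.20, and -0.36 to 0.23 with 1 library left out). A further 103 lost and 54 gained a call, and 5 were counted as reversed. Those 5 were Cdkn1a from 6 to 24 h without library 1 of 6 h (0.74, adjusted p = 0.049, from -0.16 and with a lowest value of -0.41), Gadd45b in BM-MSC against AKI without AKI library 1 (1.18, lowest -0.62), Mdm2 in UC-MSC against AKI without AKI library 1 (0.54, lowest -0.22) and with AKI library 1 and UC-MSC library 4 both left out (0.47), and Gadd45a in UC-MSC against AKI with 6 h libraries in the place of AKI (0.49). The last 2 settings were added after seeing the data, and the causes were not tested. The count of members called moved from 1 to 2 at 48 against 24 h with DESeq2 or its size factors, and from 1 to 0 at 72 against 48 h with the compared groups alone. For BM-MSC against Control it moved from 0 to 1 (DESeq2, library size alone, no filter) or 2 (compared groups alone). With 6 h in the place of AKI it moved from 3 to 0 for BM-MSC and from 6 to 3 for UC-MSC. With 1 library left out, it ranged from 3 to 7 at 6 h (3 without Control library 2), 2 to 5 from 6 to 24 h (2 without library 4 of 6 h), 0 to 1 for both later steps and 1 to 3 for BM-MSC against AKI (1 without BM-MSC library 2).

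Counts of all names moved by over 1.5 times when the compared groups were fitted alone: from 3139 to 7448 (6 h), 6990 to 11572 (24 h), 4802 to 8285 (24 against 6 h), 942 to 24 (72 against 48 h), 1485 to 4965 (BM-MSC against Control), 5547 to 3638 and 6725 to 3534 (BM-MSC and UC-MSC against AKI) and 4777 to 8344 (beyond sham). The 942 became 1705 with DESeq2 and 1500 with library size alone, and the 1485 became 2387 with DESeq2 and 582 to 1483 with 1 library left out. UC-MSC against BM-MSC gave 3403, and 1947 to 4214 with 1 left out. With library size alone the higher and lower calls shifted from 1720 and 1419 to 2171 and 883 (6 h), 338 and 604 to 236 and 1264 (72 against 48 h), 3320 and 2503 to 2271 and 3107 (AKI), 2708 and 2839 to 3997 and 1427 (BM-MSC against AKI), 3378 and 3347 to 3812 and 2459 (UC-MSC against AKI), 1669 and 1734 to 1038 and 2043 (UC-MSC against BM-MSC) and 1369 and 2334 to 793 and 2598 (sham). With DESeq2 they shifted from 1500 and 2017 to 2248 and 1834 (48 against 24 h; 1847 and 1550 with its size factors) and 1092 and 393 to 1494 and 893 (BM-MSC against Control). Library size alone moved the median of all names by up to 0.27.

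Same-numbered samples did not deviate together (correlations from -0.137 to 0.0818 in the time course and -0.494 to 0.223 in the therapy table), so the numbers do not pair them. With the replicate block, 72 against 48 h gave 500 names, and Trp53inp1 in UC-MSC against Control (0.99, adjusted p = 0.061) and Sesn2 against AKI (0.68, adjusted p = 0.066) lost and Gadd45b against AKI (1.83, adjusted p = 0.026) gained a call. For the sham table and the joint fit alone, no paired analysis was possible because the sham columns carry no replicate numbers. Cdkn2a was at the edge of detection at every depth.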
